A study of Mus musculus with 9 samples.

Results

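The naive pluripotency circuit was followed through 10 genes, Esrrb, Tfcp2l1, Tbx3, Nr0b1, Nr5a2, Prdm14, Zfp42, Dppa3, Tcl1 and Fbxo15, out of the 38293 genes counted. They were chosen by name, as genes known for high expression in the naive state. The rule uses no measured value, but the list was drawn up with earlier results of these data known. All 10 carried enough counts to be tested in each comparison. The first 7 regulate transcription. Dppa3 is a chromatin-associated maternal factor, Tcl1 a co-activator of AKT kinases and Fbxo15 an F-box protein, so the 10 are better read as naive-state genes than as transcription factors alone.

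RNA-seq was carried out on E14, a mouse embryonic stem cell line of strain 129/Ola, in 3 culture states with 3 replicates each. mESC-2i were kept in serum-free N2B27 medium with 10 ng/mL LIF (leukaemia inhibitory factor), 1 μM of the MEK inhibitor PD0325901 and 3 μM of the GSK3 inhibitor CHIR99021. mESC-ser, which the labels call primed, grew on gelatin in medium with 15% foetal bovine serum and 10 ng/mL LIF, without the inhibitors. EpiLC (epiblast-like cells) were derived from the mESC-2i state on fibronectin, in N2B27 with 20 ng/mL activin A, 12 ng/mL bFGF and 1% KSR, and their medium names neither LIF nor the inhibitors. Every group therefore came from the same unmodified line, and the time spent as EpiLC was not given in the sources used here. No source says whether the replicates were started as separate cultures, so p-values measure the spread between these libraries, which may be technical.

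In the mouse, LIF acts through the receptor pair Lifr and Il6st on the factor Stat3, which turns on Tfcp2l1, Klf4 and Socs3. Inhibition of GSK3 relieves the repressor Tcf7l1 and thereby raises Esrrb, Tfcp2l1 and Nr0b1. Tbx3 responds to the PI3K-AKT branch of the LIF signal, and Prdm14 restrains FGF signalling and the de novo DNA methyltransferases. When cells leave the naive state the circuit is dismantled, and formative genes such as Fgf5, Otx2 and Dnmt3b come on.

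The naive genes lie on 7 chromosomes of the mm10 build. Tfcp2l1 (chr1:118627945-118685168, plus strand), Nr5a2 (chr1:136842571-136960448, minus) and Prdm14 (chr1:13113457-13127163, minus) share chromosome 1. Esrrb (chr12:86361117-86521628, plus) and Tcl1 (chr12:105216750-105222793, minus) share chromosome 12. The others are Tbx3 (chr5:119670669-119684724, plus), Dppa3 (chr6:122626410-122630272, plus), Zfp42 (chr8:43295063-43306980, minus), Fbxo15 (chr18:84934782-84981473, plus) and Nr0b1 (chrX:86191764-86195947, plus). Only Tbx3 and Tfcp2l1 overlapped another annotated exon. Tbx3 shared 115 bases with the antisense gene Tbx3os1, which held 8 counts over the mESC-2i libraries, 11 over mESC-ser and 0 over EpiLC, and Tfcp2l1 shared 130 bases with Gm23497, which held 0 counts. The library kit does not mark strand, so reads from Tbx3 and Tbx3os1 cannot be told apart over those bases.

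Totals ranged from 7187576 to 16829549 counts per library. Marker levels differed between the groups. The summed level of 4 epiblast-like markers (Fgf5, Otx2, Pou3f1 and Dnmt3b) was 71.8 to 80.3 CPM (counts scaled to the library size) in mESC-2i, 609 to 711 in mESC-ser and 1620 to 1709 in EpiLC. The summed level of 5 general pluripotency markers (Pou5f1, Sox2, Sall4, Lin28a and Epcam) lay between 1501 and 2520 CPM in every library, with Pou5f1 the highest in each group. Its members did not move alike, since in EpiLC against mESC-2i Sox2 was lower by a log2 fold change of -2.94 (SE 0.106, adjusted p = 4.75e-09) while Lin28a (1.75, SE 0.0978, adjusted p = 8.47e-08) and Epcam (2.69, SE 0.106, adjusted p = 8.59e-09) were higher. Among these markers, exons of Otx2, Pou3f1, Pou5f1, Sall4 and Lin28a overlap those of other genes. Libraries of a group differed by more than counting noise in every pair, with a chi-square between 1.66 and 30.5 per degree of freedom. The mESC-2i and mESC-ser libraries numbered 3 each lay apart from the others of their group. This touches several genes below, among them Tfcp2l1, Tbx3, Nr0b1, Fbxo15, Zfp42, Prdm14 and Esrrb.

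Promoter sequence was available from RefSeq (build GRCm38.p6) for 6 of the 10 genes, in 8 windows of the 250 bases before a transcription start. Windows of Esrrb and Tfcp2l1, which were lower in serum, and of Zfp42 and Nr0b1, which were not, are shown 5′ to 3′ on the gene's strand. Capitals mark every match, on either strand, to a searched motif. These were the nuclear receptor half-site AGGTCA and its extended form AAGGTCA, the octamer core TTTGCAT, the Klf box CCNCNCCC, the Tcf box CTTTGA, the Stat box TTCNNNGAA, the T-box half-site AGGTGTG and the TATA box TATAAA. The extended half-site contains the shorter one, and Klf boxes can overlap each other.
Zfp42 (chr8:43307010-43307259, minus): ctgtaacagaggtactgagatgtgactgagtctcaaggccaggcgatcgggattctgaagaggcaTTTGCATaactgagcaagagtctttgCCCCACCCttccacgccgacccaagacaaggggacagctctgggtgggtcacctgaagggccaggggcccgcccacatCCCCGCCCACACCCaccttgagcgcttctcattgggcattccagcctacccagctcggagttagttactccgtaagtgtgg
Nr0b1 (chrX:86191525-86191774, plus): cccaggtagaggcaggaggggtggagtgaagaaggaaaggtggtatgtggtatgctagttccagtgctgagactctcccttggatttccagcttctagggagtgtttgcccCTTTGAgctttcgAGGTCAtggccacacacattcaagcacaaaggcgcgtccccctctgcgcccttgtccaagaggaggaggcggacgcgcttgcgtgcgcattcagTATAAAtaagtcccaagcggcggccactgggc
Esrrb, upstream start (chr12:86360867-86361116, plus): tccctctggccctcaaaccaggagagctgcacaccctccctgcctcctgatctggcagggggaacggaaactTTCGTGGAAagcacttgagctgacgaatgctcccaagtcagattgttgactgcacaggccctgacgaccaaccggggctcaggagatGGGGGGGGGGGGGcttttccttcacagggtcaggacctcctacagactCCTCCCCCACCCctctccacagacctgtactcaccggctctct
Tfcp2l1 (chr1:118627695-118627944, plus): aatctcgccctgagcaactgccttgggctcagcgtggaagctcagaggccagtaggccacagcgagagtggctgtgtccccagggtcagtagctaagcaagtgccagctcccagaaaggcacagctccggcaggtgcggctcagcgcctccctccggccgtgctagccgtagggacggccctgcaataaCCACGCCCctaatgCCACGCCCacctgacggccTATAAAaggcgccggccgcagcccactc

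The Zfp42 window held the octamer core 185 bases before the start, a word present in 4.12% of all 32851 windows of this length, and 3 Klf boxes. In the Nr0b1 window the half-site read by nuclear receptors began 126 bases before the start, next to a Tcf box at 139 bases and above a TATA box at 32 bases. The half-site stood in 14% of all windows, the Tcf box in 13.8% and the TATA box in 12.4%. The upstream Esrrb window carried a Stat box 178 bases before the start, against 7.02% of all windows. The Tfcp2l1 window carried 2 Klf boxes and a TATA box 28 bases before the start. Klf boxes were found in 6 of the 8 windows and in 45.9% of all windows. The extended half-site, bound by Esrrb and Nr5a2, was in none of the 8 windows and in 4.08% of all. These matches describe letters, and binding was not measured here.

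The 10 genes together took 0.271% to 0.294% of the counts in mESC-2i libraries, 0.160% to 0.162% in mESC-ser and 0.00456% to 0.00504% in EpiLC. The 3 groups did not overlap in this share. Tfcp2l1 held the most counts in mESC-2i, while Esrrb held the most in mESC-ser and EpiLC.

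Levels below are CPM scaled by TMM (a normalisation of library size and composition) over all 9 libraries, listed in the order of replicates 1, 2 and 3. A gene was called higher or lower at an adjusted p under 0.05 and a log2 fold change beyond 0.5 in either direction. Fold changes, standard errors (SE) and adjusted p-values are from edgeR's quasi-likelihood test on each pair of groups, adjusted over all genes tested. The comparisons share libraries, since each group enters a pair of them. In bulk RNA, fewer expressing cells and less RNA per cell cannot be told apart, and this holds for every fall described here.

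**Figure D1:**
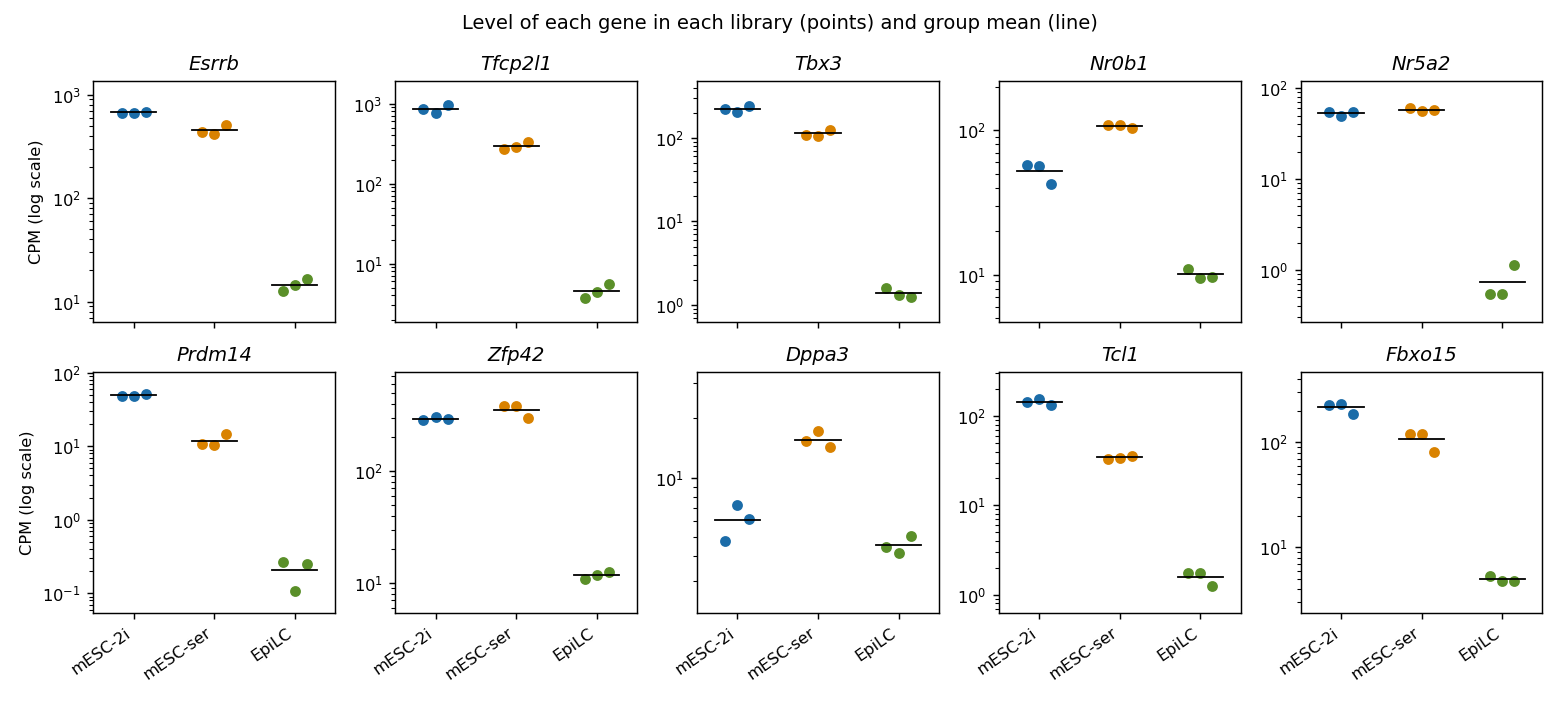
Level of each of the 10 naive genes in every library. Points are single libraries by group on a log axis of CPM scaled by TMM, and horizontal bars are group means (n = 3). The EpiLC points lie below both mESC groups for every gene except Dppa3, where EpiLC and mESC-2i points overlap.

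Against mESC-2i, mESC-ser showed a split circuit. Tfcp2l1, Prdm14, Tcl1, Tbx3, Fbxo15 and Esrrb were lower, Nr0b1 and Dppa3 were higher, and Nr5a2 and Zfp42 were not called. Among all 15728 genes tested, 30.3% were called lower and 25.9% higher, 56.2% in all. The count of 6 lower and 2 higher among 10 sits against that wide background of change. The median log2 fold change of the 10 was -0.83, and that of all genes tested was -0.043. The libraries of the 2 groups did not overlap for 9 of the 10, Zfp42 being the exception, and the same was true of 70.7% of all genes.

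Against mESC-2i, EpiLC held nearly all of these genes at a lower level. Here 9 of the 10 were lower, and Dppa3 was not called. Nr0b1 kept 19.2% of its mESC-2i mean, while Tbx3 kept 0.628%, Tfcp2l1 0.537% and Prdm14 0.426%. Of the 15378 genes tested, 37.8% were called lower and 32.0% higher, 69.8% in all. The median log2 fold change was -5.86 for the 10 and -0.11 for all genes tested. The libraries of 9 of the 10 did not overlap, against 81.8% of all genes.

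Against mESC-ser, all 10 were lower in EpiLC. The share called lower among the 15345 genes tested was 37.8%, and 35.5% were higher, 73.3% in all. The median log2 fold change was -4.85 for the 10 and -0.068 for all genes tested. None of the 10 had overlapping libraries, and neither did 85.7% of all genes.

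**Figure D2:**
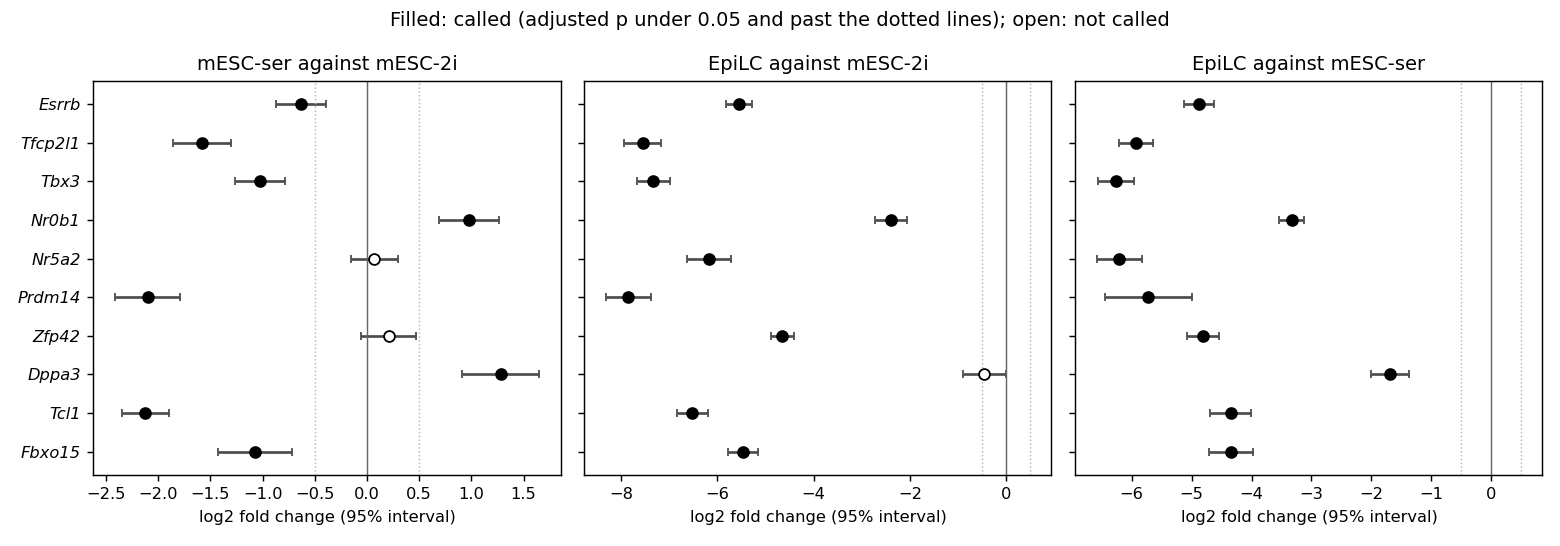
Log2 fold change of each naive gene in the 3 comparisons. Points are edgeR estimates and bars are 95% confidence intervals, with filled points for genes that were called and dotted lines at the fold threshold of 0.5 in each direction. The mESC-ser against mESC-2i values spread on either side of 0 from -2.13 for Tcl1 to 1.28 for Dppa3, and those of EpiLC lie below 0. The EpiLC values of Prdm14 rest on 5 counts over the group.

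Among the nuclear receptors, Esrrb is an orphan oestrogen-related receptor and an anchor of self-renewal when GSK3 is inhibited. Its level was 673, 673 and 679 CPM in mESC-2i, 436, 417 and 510 in mESC-ser, with 12.8, 14.4 and 16.5 in EpiLC. The mESC-2i libraries were close together and above every mESC-ser library, and both stood far above EpiLC. The log2 fold change of mESC-ser against mESC-2i was -0.63 (SE 0.107, adjusted p = 0.000443), the smallest fall among the called genes of the set. EpiLC kept 2.15% of the mESC-2i level, a log2 fold change of -5.55 (SE 0.125, adjusted p = 4.15e-10). Against mESC-ser the EpiLC change was -4.88 (SE 0.118, adjusted p = 8.12e-15).

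Nr5a2 is an orphan receptor that binds regulatory elements of Pou5f1. It read 54.6, 50.03 and 54.8 CPM in mESC-2i, 60.1, 56.3 and 57.9 in mESC-ser, with 0.537, 0.542 and 1.13 in EpiLC. The mESC-ser libraries lay just above those of mESC-2i without overlap. That difference was 0.071 on the log2 scale (95% confidence interval -0.15 to 0.29, adjusted p = 0.552), so it was not called. With offsets for gene length and GC content the same difference turned to -0.22 (adjusted p = 0.0212), below the fold threshold. The fall in EpiLC was -6.18 against mESC-2i (SE 0.204, adjusted p = 2.77e-09) and -6.21 against mESC-ser (SE 0.179, adjusted p = 4.12e-14), resting on 4, 5 and 9 counts in EpiLC.

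Nr0b1 (Dax1) is an orphan receptor without the usual zinc-finger DNA-binding domain and acts as a co-repressor. Its level was 57.3, 56.9 and 42.2 CPM in mESC-2i, 109, 108 and 103 in mESC-ser, with 11.0, 9.44 and 9.67 in EpiLC. All mESC-ser libraries lay above all mESC-2i libraries, and mESC-2i replicate 3 was the lowest of its group. The rise in mESC-ser was 0.98 on the log2 scale (SE 0.129, adjusted p = 7.87e-05), and it was 0.85 without mESC-2i replicate 3. EpiLC retained 19.2% of the mESC-2i level, with a log2 fold change of -2.40 (SE 0.152, adjusted p = 2.02e-07). The corresponding change against mESC-ser was -3.33 (SE 0.101, adjusted p = 5.85e-14).

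Tfcp2l1, a CP2-family factor downstream of both Stat3 and GSK3 inhibition, was measured at 845, 757 and 957 CPM in mESC-2i, 275, 285 and 329 in mESC-ser, with 3.76, 4.45 and 5.53 in EpiLC. The groups were fully separated and ordered mESC-2i, mESC-ser, EpiLC, and replicate 3 was the highest library in both mESC groups. mESC-ser held 34.7% of the mESC-2i level, a log2 fold change of -1.58 (SE 0.125, adjusted p = 2.19e-06). EpiLC held 0.537%, a log2 fold change of -7.55 (SE 0.174, adjusted p = 4.15e-10), and only 0.364% of the genes tested had a lower value in that comparison. EpiLC against mESC-ser gave -5.92 (SE 0.132, adjusted p = 5.82e-15).

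Tbx3, a T-box factor, followed the same order of groups. The libraries read 220.4, 203 and 240.0 CPM in mESC-2i, 109.6, 107 and 123 in mESC-ser, with 1.61, 1.30 and 1.26 in EpiLC. No library of one group reached into another, and replicate 3 was again the highest in both mESC groups. The log2 fold change was -1.03 in mESC-ser (SE 0.108, adjusted p = 1.61e-05) and -7.33 in EpiLC (SE 0.152, adjusted p = 4.15e-10), both against mESC-2i. Between EpiLC and mESC-ser it was -6.26 (SE 0.144, adjusted p = 7.29e-15), the most negative of the 10 in that comparison.

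Prdm14, a PR-domain zinc-finger repressor also needed for germ cell specification, read 47.5, 48.9 and 51.1 CPM in mESC-2i and 10.6, 10.4 and 14.5 in mESC-ser. In EpiLC its 3 libraries held 2, 1 and 2 counts, or 0.268, 0.108 and 0.251 CPM. The mESC groups did not overlap, and mESC-ser replicate 3 was the highest of its group. The log2 fold change of mESC-ser was -2.10 (SE 0.142, adjusted p = 7.39e-07), and 5.78% of genes tested were lower. Scaled to library size by TMM, summed counts were 243-fold higher in mESC-2i than in EpiLC (95% exact interval 104 to 750). They were 59.7-fold higher in mESC-ser than in EpiLC (25.4 to 185). These intervals cover counting error only. Both EpiLC differences were called in edgeR (adjusted p = 9.03e-10 against mESC-2i and 1e-10 against mESC-ser).

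Zfp42 (Rex1) is a YY1-related zinc-finger protein and the usual reporter gene for the naive state. It read 287, 303 and 290.0 CPM in mESC-2i, 382, 381 and 296 in mESC-ser, with 10.9, 11.8 and 12.7 in EpiLC. The mESC-ser and mESC-2i libraries overlapped through mESC-ser replicate 3, which lay within the mESC-2i range. The log2 difference between them was 0.21 (95% confidence interval -0.053 to 0.47, adjusted p = 0.141). Without mESC-ser replicate 3 it was 0.33 (adjusted p = 0.0139), which stays under the fold threshold. EpiLC was lower by a log2 fold change of -4.65 against mESC-2i (SE 0.106, adjusted p = 4.15e-10) and -4.82 against mESC-ser (SE 0.127, adjusted p = 1.77e-14).

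Dppa3 (Stella) protects DNA methylation in the zygote, limits Uhrf1 on chromatin and is known for patchy expression in serum cultures. Its level was 4.79, 7.25 and 6.16 CPM in mESC-2i, 15.3, 17.1 and 14.2 in mESC-ser, with 4.43, 4.12 and 5.03 in EpiLC. Every mESC-ser library lay above all others, whereas mESC-2i replicate 1 fell inside the EpiLC range. mESC-ser against mESC-2i gave a log2 fold change of 1.28 (SE 0.166, adjusted p = 6.9e-05), and 90.0% of genes tested were lower than this. EpiLC against mESC-2i gave -0.46 (95% confidence interval -0.90 to -0.013, adjusted p = 0.0561), which was not called. That call depended on the processing, since the value was -0.79 (adjusted p = 0.00364) with scaling by total counts, -1.03 (adjusted p = 0.000686) with offsets for gene length and GC content and -0.55 (adjusted p = 0.0385) without mESC-2i replicate 1. Against mESC-ser the EpiLC value was -1.69 (SE 0.152, adjusted p = 2.01e-08).

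Dppa3 has a transcribed processed copy, Dppa3-ps (chrX:37625647-37626097, minus strand of mm10), and all 451 bases of the copy aligned to the Dppa3 transcript with 98.2% identity. How reads with several alignments were treated is not given in the sources used here, so the split of counts between gene and copy is uncertain. Dppa3-ps held 14, 25 and 11 counts in mESC-2i, 66, 61 and 79 in mESC-ser, with 13, 13 and 14 in EpiLC. This was between 13.9% and 39.4% of the Dppa3 count of the same library. The copy rose in mESC-ser as well, with a log2 fold change of 1.58 (SE 0.279, adjusted p = 0.000568). With both summed, the log2 fold change was 1.35 in mESC-ser (adjusted p = 3.5e-05) and -0.34 in EpiLC (adjusted p = 0.12), each against mESC-2i. For EpiLC against mESC-ser it was -1.64 (adjusted p = 8.55e-09).

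**Figure D3:**
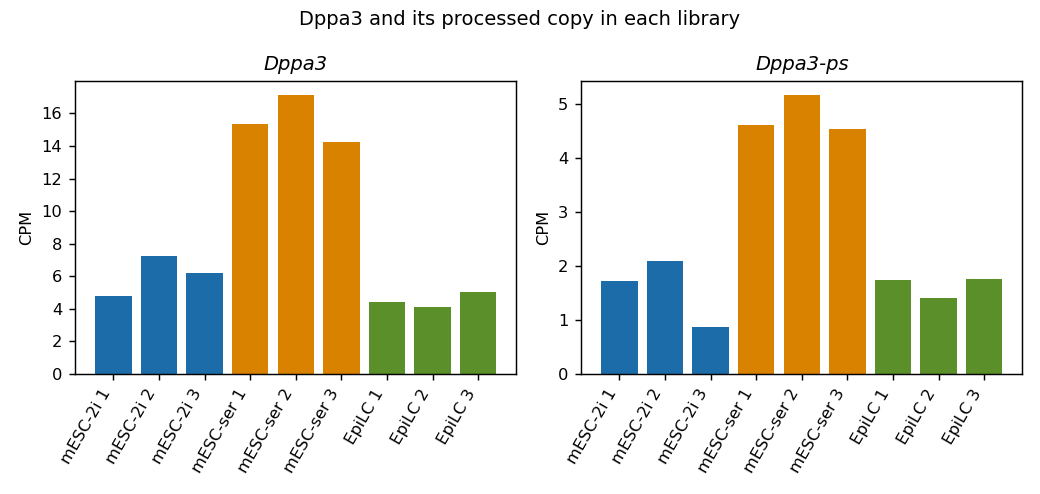
Level of Dppa3 (left) and of its processed copy Dppa3-ps (right) in every library. Bars are CPM scaled by TMM on separate linear axes that start at 0, coloured by culture state. The 3 mESC-ser libraries are the highest for both, at 14.2 to 17.1 CPM for Dppa3.

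Cells resembling the 2-cell embryo arise in serum cultures, and their markers, like Dppa3, were highest in mESC-ser. The summed level of 6 markers of this state (Zscan4c, Zscan4d, Zscan4f, Tcstv1, Tcstv3 and Zfp352) was 0.737 to 1.00 CPM in mESC-2i, where Tcstv1 was at 0, 72.2 to 111 in mESC-ser and 9.66 to 13.6 in EpiLC. In EpiLC against mESC-2i, where 32.0% of all genes were higher, all 3 of these markers that could be tested were higher. Their log2 fold changes ran from 3.67 to 4.30, whereas Dppa3 was not higher. The part of these markers in the Dppa3 result was not tested. Listed too were 6 markers of primordial germ cells other than the naive genes (Prdm1, Nanos3, Dazl, Ddx4, Itgb3 and Tfap2c). In mESC-ser against mESC-2i, 4 were lower and 2, Ddx4 and Itgb3, higher, where 30.3% and 25.9% of all genes were lower and higher. In EpiLC against mESC-2i, 5 were lower and 1, Ddx4, higher, beside 37.8% and 32.0% of all genes. For EpiLC against mESC-ser, 4 were lower, Dazl higher (0.61, SE 0.151, adjusted p = 0.00129) and Nanos3 not called, beside 37.8% and 35.5% of all genes. The summed level of these 6 was 188 to 197 CPM in mESC-2i, 87.9 to 89.2 in mESC-ser and 21.2 to 23.8 in EpiLC, made up mostly of Dazl and Tfap2c in mESC-2i. Not every marker followed the order of this sum, since Dazl was lowest, and Ddx4 and Itgb3 highest, in mESC-ser. Prdm14, a germ cell factor itself, fell in the order of the sum, as did Esrrb, Tfcp2l1, Tbx3, Tcl1 and Fbxo15. The part of germ cells in these values was not tested. The 5 fibroblast markers (Col1a1, Col1a2, Col3a1, Thy1 and Pdgfrb) summed to 32.4 to 82.6 CPM over all groups. In EpiLC against mESC-2i, Thy1 was higher, with a mean of 29.5 CPM in EpiLC, and the other 4 were lower. In that comparison 69.8% of all genes were called. Primitive endoderm markers summed to 2.26 to 16.3 CPM and trophectoderm markers to 7.41 to 42.4. Primitive streak markers summed to 12.5 to 121 CPM, highest in mESC-2i, where T made up most of the sum (mean 85.5). Mixl1 was instead highest in EpiLC, at a mean of 1.91 CPM.

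On the same chromosome arm as Dppa3, Gdf3 and Nanog lie 16323 and 77217 bases away. Nanog, the homeodomain factor at the core of the circuit, was lower in mESC-ser with a log2 fold change of -1.24 (SE 0.115, adjusted p = 6.97e-06), opposite in sign to Dppa3. Gdf3, a TGF-beta family ligand, was lower as well, by -0.53 (SE 0.119, adjusted p = 0.00274). In EpiLC against mESC-2i, Nanog changed by -3.43 (SE 0.111, adjusted p = 2.56e-09) and Gdf3 by -0.28 (adjusted p = 0.0149), the second being under the fold threshold.

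Tcl1 binds AKT kinases and raises their activity. It read 145, 155 and 134 CPM in mESC-2i, 33.3, 34.2 and 35.9 in mESC-ser, with 1.74, 1.74 and 1.26 in EpiLC. The libraries of each group were tight and the groups well apart. The log2 fold change of mESC-ser was -2.13 (SE 0.101, adjusted p = 7.83e-08), the lowest of the 10 beside that of Prdm14, and that of EpiLC was -6.52 (SE 0.148, adjusted p = 4.15e-10), both against mESC-2i. EpiLC against mESC-ser gave -4.35 (SE 0.158, adjusted p = 2.99e-13). The family genes Tcl1b1 and Tcl1b5 lie 50125 and 35605 bases away, and Tcl1b3 and Tcl1b4 lie between them and Tcl1. Over all libraries of a group, Tcl1b1 and Tcl1b4 had 0 counts and Tcl1b3 and Tcl1b5 at most 1, so none of them was tested.

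Fbxo15 is a substrate adaptor of SCF ubiquitin ligases, long used as a reporter in reprogramming. Its level was 228, 234 and 187 CPM in mESC-2i, 120.0, 119 and 81.6 in mESC-ser, with 5.37, 4.77 and 4.77 in EpiLC. The groups did not overlap, and replicate 3 was the lowest library in both mESC groups. mESC-ser held 49.4% of the mESC-2i level, a log2 fold change of -1.07 (SE 0.159, adjusted p = 0.000173), which was -0.90 without mESC-ser replicate 3. EpiLC changed by -5.46 against mESC-2i (SE 0.14, adjusted p = 6.47e-10) and by -4.34 against mESC-ser (SE 0.171, adjusted p = 7.18e-13).

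Levels of different genes were compared as CPM per kilobase of exonic length. In mESC-2i the order was Zfp42 (156), Esrrb (112), Tfcp2l1 (90.4), Tcl1 (78.4), Fbxo15 (64.4), Tbx3 (33.4), Nr0b1 (28.8), Prdm14 (19.2), Nr5a2 (9.01) and Dppa3 (6.80). Only the neighbours Tfcp2l1 with Tcl1 and Tbx3 with Nr0b1 overlapped between libraries, and the first pair traded places when the longest transcript was used as length. As counted, without reads assigned to its copy Dppa3-ps, Dppa3 was the lowest of the 10 in mESC-2i and in no other group. The split of reads with the copy is uncertain, and so is this place.

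In mESC-ser, Zfp42 (188 CPM per kilobase) and Esrrb (75.1) still led, and Nr0b1 (59.2) had moved up to follow them. Then came Fbxo15 (31.8) and Tfcp2l1 (31.4), which overlapped, and Tcl1 (18.7), Dppa3 (17.5) and Tbx3 (17.1), where each neighbour overlapped the next. Nr5a2 (9.85) and Prdm14 (4.62) were last.

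In EpiLC, Zfp42 (6.27 CPM per kilobase), Nr0b1 (5.55) and Dppa3 (5.07) came first. Neighbours in this order overlapped, while Zfp42 (5.78 to 6.75) and Dppa3 (4.62 to 5.63) did not. Next came Esrrb (2.41), Fbxo15 (1.48), Tcl1 (0.856) and Tfcp2l1 (0.485), each separate from its neighbours. Tbx3 (0.210), Nr5a2 (0.125) and Prdm14 (0.0817) were last, where neighbours overlapped but Tbx3 and Prdm14 did not. As a share of their mESC-2i means, Zfp42 kept 4.02%, Nr0b1 19.2% and Dppa3 74.6%.

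**Figure D4:**
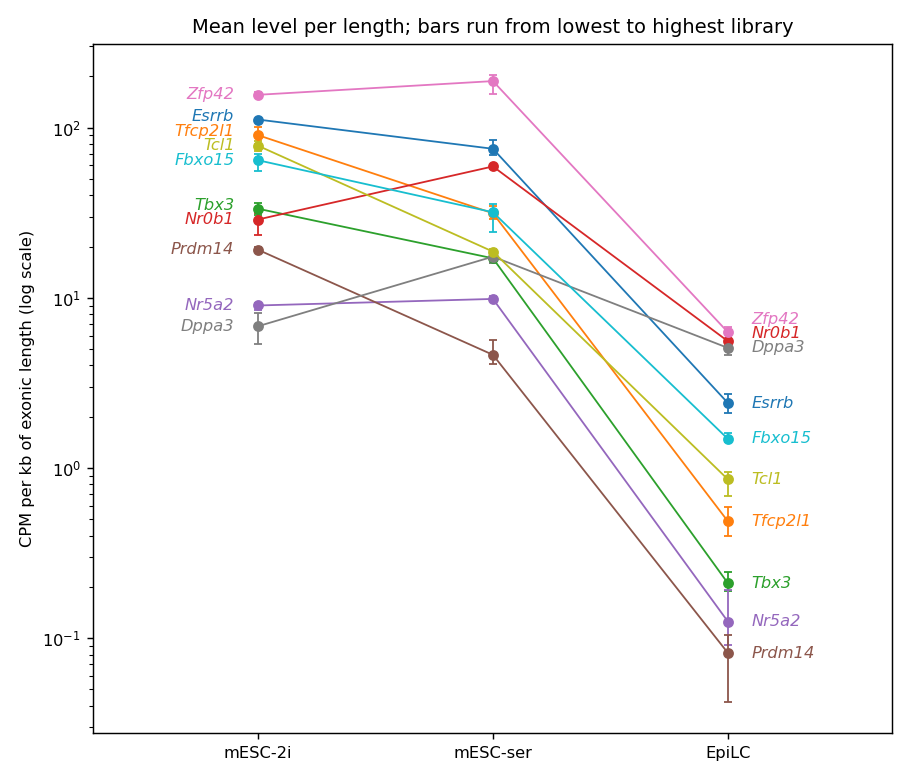
Order of the 10 naive genes by level in each culture state. The vertical log axis is mean CPM per kilobase of exonic length (n = 3), error bars run from the lowest to the highest library, and lines join the values of the same gene. Zfp42 is highest in all 3 groups, and Dppa3, without reads assigned to its copy, goes from the lowest place in mESC-2i to the third in EpiLC.

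Closeness of pattern was measured as the root mean square distance between log2 CPM profiles over the 9 libraries, each centred on its own mean, so a small value means that 2 genes moved alike whatever their level. Within the set, Tbx3 and Tfcp2l1 were nearest to each other (0.308), as were Esrrb and Fbxo15 (0.369) and Prdm14 and Tcl1 (0.406). Zfp42 (0.448) and Nr5a2 (0.492) were each nearest to Esrrb. Dppa3 and Nr0b1 were each other's nearest at 0.885, the widest of these distances.

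Among 13597 genes, the closest outside the set mostly differed from one naive gene to the next. Bcl3, a nuclear IκB protein, lay nearest to Esrrb (0.129), although exons of Bcl3 overlap another gene. Jam2, a junctional adhesion molecule, was nearest to Tfcp2l1 (0.294), and Ntn1, the guidance cue netrin-1, to Tbx3 (0.222). The receptor tyrosine kinase gene Kit was nearest to both Tcl1 (0.203) and Prdm14 (0.393), with means of 264 CPM (mESC-2i), 59.0 (mESC-ser) and 3.09 (EpiLC). Nr0b1 lay closest to the thrombin receptor gene F2r (0.160), with Csrnp3 (0.171), whose exons overlap another gene, and Klf9 (0.186) next. Nr5a2 was followed by Tgm1 (0.359), which overlaps another gene, and Klf5 (0.372). Emp1 (0.131), a membrane protein gene, was nearest to Zfp42, Zfp977 (0.136) to Dppa3 and Lrrc34 (0.209), which overlaps another gene, to Fbxo15.

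The wider pluripotency network was read from 21 further genes, listed with earlier results of these data known. They are not all naive genes, since Pou5f1, Sox2 and Sall4, named above as general pluripotency markers, are among them. In mESC-ser against mESC-2i, 7 were lower, 7 higher and 7 not called, where 30.3% and 25.9% of all genes were lower and higher, with a median log2 fold change of -0.19. In EpiLC, 13 were lower and 3 higher against mESC-2i, and 13 lower and 2 higher against mESC-ser, with medians of -2.68 and -1.54. The 16 and 15 called of 21 were near the 69.8% and 73.3% called among all genes. Of all genes, 37.8% were lower in both comparisons, with medians of -0.11 and -0.068. The naive genes above moved further down, with medians of -5.86 and -4.85, and the difference between the lists was not tested. The LIF receptor genes Lifr (-2.89, SE 0.147, adjusted p = 4.37e-08) and Il6st (-3.09, SE 0.114, adjusted p = 5.54e-09) fell in EpiLC against mESC-2i. Stat3, whose exons overlap another gene, was at -3.78 (SE 0.121, adjusted p = 2.37e-09) and its feedback target Socs3 at -5.11 (SE 0.136, adjusted p = 8.26e-10). In mESC-ser against mESC-2i, Lifr was higher by 0.68 (SE 0.127, adjusted p = 0.000863). In that comparison Stat3 (-0.19, adjusted p = 0.113), Socs3 (-0.23, adjusted p = 0.0661) and Il6st (-0.017, adjusted p = 0.898) were not called. Tfcp2l1 and Klf4 (-1.33, SE 0.111, adjusted p = 3.2e-06) were lower, and the part of LIF signalling in their fall was not tested. Utf1, a chromatin factor active in pluripotent cells, went the other way at 3.56 in mESC-ser (SE 0.126, adjusted p = 1.77e-08) and 5.00 in EpiLC (SE 0.132, adjusted p = 7.73e-10).

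Of 10 listed factors that drive exit from the naive state, 1 was lower and 5 higher in mESC-ser, and 3 were lower and 3 higher in EpiLC, both against mESC-2i. Against mESC-ser, 4 were lower and 2 higher in EpiLC. The 6 called in each comparison were near or below the share called among all genes (56.2%, 69.8% and 73.3%). Tcf7l1, the repressor of Esrrb and Tfcp2l1, was called in no comparison (log2 fold changes of 0.097, -0.18 and -0.24). Exons of Tcf7l1 overlap another gene. Jarid2, a partner of Polycomb repressive complex 2, rose by 2.26 in mESC-ser (SE 0.122, adjusted p = 1.76e-07). Of 10 formative genes, 9 were higher in mESC-ser and 9 in EpiLC against mESC-2i, with medians of 2.39 and 3.33. In EpiLC against mESC-ser, 7 were higher and 1 lower. Higher among all genes in these 3 comparisons were 25.9%, 32.0% and 35.5%.

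Of 15 listed partners and targets of the naive genes, 9 were higher and 1 lower in mESC-ser against mESC-2i, 6 were lower and 4 higher in EpiLC against mESC-2i, and 8 were lower and 3 higher in EpiLC against mESC-ser. The 10, 10 and 11 called of 15 were near the 56.2%, 69.8% and 73.3% called among all genes. Ncoa3, a co-activator of Esrrb whose exons overlap another gene, rose by 1.79 in mESC-ser (SE 0.139, adjusted p = 2e-06) while Esrrb fell. Cbfa2t2, the co-repressor bound by Prdm14, fell by 1.22 on the log2 scale in EpiLC against mESC-2i (SE 0.0924, adjusted p = 6.89e-07), and its mESC-ser difference of 0.39 was under the fold threshold. The methylcytosine dioxygenase genes Tet1 (2.90, SE 0.159, adjusted p = 1.91e-07) and Tet2 (1.94, SE 0.245, adjusted p = 5.86e-05) were higher in mESC-ser than in mESC-2i, and lower in EpiLC at -1.61 (SE 0.145, adjusted p = 2.39e-06) and -5.20 (SE 0.373, adjusted p = 4.74e-07). Exons of Tet2 overlap another gene. Uhrf1, the maintenance methylation factor bound by Dppa3, was under the fold threshold in mESC-ser (-0.46, adjusted p = 0.0026) and not called in EpiLC against mESC-2i (0.036, adjusted p = 0.709). The SCF subunit genes that serve Fbxo15 were not lower in EpiLC against mESC-2i, where Skp1a (0.68, SE 0.122, adjusted p = 0.000396), Cul1 (0.79, SE 0.0877, adjusted p = 1.12e-05) and Rbx1 (1.54, SE 0.11, adjusted p = 4.54e-07) rose. Exons of Cul1 overlap another gene.

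Of 19 listed paralogues of the naive genes, 9 carried enough counts in mESC-ser against mESC-2i, with 4 lower and 2 higher, 8 in EpiLC against mESC-2i, with 6 lower, and 7 in EpiLC against mESC-ser, with 6 lower and 1 higher. Among all genes 56.2%, 69.8% and 73.3% were called. Esrra, the ubiquitous relative of Esrrb whose exons overlap another gene, fell in mESC-ser by 0.98 on the log2 scale (SE 0.132, adjusted p = 8.91e-05) but was not called in EpiLC against mESC-2i (0.41, adjusted p = 0.0136), where Esrrb was lower by 5.55. Tfcp2, the relative of Tfcp2l1, changed by -0.53 (SE 0.128, adjusted p = 0.00415) and -1.28 (SE 0.158, adjusted p = 2.6e-05) in the same comparisons. Yy1, from which Zfp42 derives, was higher in mESC-ser at 0.65 (SE 0.0908, adjusted p = 0.000119) and not called in EpiLC against mESC-2i at -0.48 (adjusted p = 0.00035). Nr5a1 and Nr0b2, the relatives of Nr5a2 and Nr0b1, had at most 6 counts over the libraries of any group and were not tested.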

How the data were processed

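Poly-A RNA of 9 libraries, 3 per culture state, was sequenced as short single-end reads with a kit that does not mark strand. Per the labels, reads were checked with FastQC (0.11.0), trimmed with Trim Galore (0.6.6), aligned to mm10 with HISAT2 (2.2.1) and counted with Subread (2.0.1). The values the authors deposited are raw counts per Ensembl gene. The annotation release, whether counting used strand and how multi-mapping reads were handled are not given in the sources used here. Columns were assigned to samples by name, the serum columns by the initials of serum and LIF.

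Symbols, positions and exonic lengths came from GENCODE M21 and matched 36429 of 38293 genes. Every comparison was fitted to its 6 libraries alone in edgeR (4.0.16, R 4.3.3), with filterByExpr, TMM scaling, the quasi-likelihood F-test and Benjamini-Hochberg adjustment over all tested genes. The fold threshold is that of the study. SE were taken from the F statistic. The fit was tested on simulated data. An exact permutation test of 3 against 3 cannot go below p = 0.1 and was not used.

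The 10 genes, the lists and the cell type markers were chosen with earlier results of these data known. The text names the 10 genes, examples from the lists and, for each of the 10, the nearest genes by log2 CPM profile (prior count 2). Deviations of same-numbered mESC-ser and mESC-2i libraries correlated at r from 0.129 to 0.345, and those of other pairs at -0.278 to 0.146. These ranges overlapped, and the highest r, 0.345, was that of the libraries numbered 3. A replicate block was therefore fitted too. For EpiLC the same-numbered r were 0.0202 to 0.112 with mESC-2i and 0.016 to 0.0332 with mESC-ser. Alternatives were other scalings (RLE, upper quartile, total counts), other filters on low counts, DESeq2 (1.42.0), edgeR's exact test, 1 fit of all 9 libraries, length and GC offsets, other thresholds and leaving out each library. Floors and intervals of counts cover counting error only.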

Additional observations from a re-analysis of the deposited data

How the results depend on the processing

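The call of Dppa3 in EpiLC against mESC-2i was the least settled result of the 10 genes. Its log2 fold change of -0.46 became -0.79 with total counts, -0.52 with at least 10 counts in every library, -1.03 with length and GC offsets and -1.02 with the offsets and the replicate block, and it was called under each of these. Leaving out 1 library at a time gave -0.55 to -0.27, called only without mESC-2i replicate 1. The cause was not tested. Total counts also shifted the median of all genes in EpiLC to -0.45 against mESC-2i and -0.41 against mESC-ser, and the share of higher calls to 33.7% from 45.9% and to 37.4% from 48.4%. In mESC-ser against mESC-2i, Nr5a2 turned to -0.22 with the offsets, alone or with the block, and the cause was not tested. At a log2 fold change beyond 1, Esrrb (-0.63) and Nr0b1 (0.98) were no longer called, by construction, 1 of the 10 remained higher, and 2713 genes were lower and 2222 higher in place of 4762 and 4081. Under the other settings run, all calls of the 10 genes were kept. The replicate block alone changed none of them, with Dppa3 at -0.45 in EpiLC against mESC-2i. With at least 10 counts in every library, Nr5a2 and Prdm14 gave no value in the EpiLC comparisons. Leaving out 1 library at a time gave 6 lower and 2 higher genes in mESC-ser, 9 to 10 lower in EpiLC against mESC-2i and 10 against mESC-ser. The sum of Dppa3 and its copy was chosen after seeing the data. Depth limits Prdm14, Nr5a2, Tbx3 and Tcl1 in EpiLC, at 1 to 16 counts per library.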
